A study of Homo sapiens with 4 samples.

Results

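The peaks of 2 γH2AX ChIP-seq libraries from the uterine leiomyosarcoma cell line SK-UT-1 were compared, 1 from cells given the vehicle (0.1% DMSO) and 1 from cells given 1 µM OTS186935, an inhibitor of the histone methyltransferase SUV39H2. Intervals that overlapped or touched were merged within each list on chromosomes 1 to 22 and X, which left 72858 DMSO peaks and 59710 OTS186935 peaks. Joined together they formed 99983 regions, of 123975 regions in all 4 libraries of the series, which also holds doxorubicin at 0.5 µM and both drugs together. The labels name no genetic change and give no treatment time. Each condition had 1 library, so no difference between conditions was tested, and the intervals given are exact Clopper-Pearson 95% intervals that cover counting error only. A peak list of a histone mark does not measure expression, so the name of the cell line could not be checked against marker transcripts.

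H2A.X is a variant of histone H2A that kinases of the DNA damage response, ATM, ATR and DNA-PK, phosphorylate near its end. The phosphorylated form, γH2AX, spreads over chromatin around double-strand breaks and recruits repair factors through MDC1, and it is also found without added damage at some active genes, at stalled replication forks and near telomeres. SUV39H2 methylates lysine 9 of histone H3, a mark of heterochromatin, and has been described to methylate H2A.X as well, near the site that is phosphorylated. The comparison asks where γH2AX peaks lay when this enzyme was inhibited.

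Among promoters with a DMSO peak, those with the most G and C had an OTS186935 peak less often than those of middling content. Each sequence below is the 250 bases before the annotated start of a gene, 5′ to 3′ on the strand of the gene, from RefSeq on GRCh38.p14 (hg38), with every CG dinucleotide in capitals. The first pair had a peak in both libraries, the second pair only with DMSO and from the group of promoters richest in G and C, then follow 1 promoter called only with DMSO and 1 called only with OTS186935. They were picked after the values were seen, from among the strong peaks of their sets, and are not always the strongest.
ZSCAN12: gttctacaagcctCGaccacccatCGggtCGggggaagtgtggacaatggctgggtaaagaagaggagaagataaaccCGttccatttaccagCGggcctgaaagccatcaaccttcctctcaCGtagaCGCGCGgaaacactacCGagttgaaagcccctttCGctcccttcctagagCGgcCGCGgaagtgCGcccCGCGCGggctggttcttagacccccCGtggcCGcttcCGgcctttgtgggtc
COL6A6: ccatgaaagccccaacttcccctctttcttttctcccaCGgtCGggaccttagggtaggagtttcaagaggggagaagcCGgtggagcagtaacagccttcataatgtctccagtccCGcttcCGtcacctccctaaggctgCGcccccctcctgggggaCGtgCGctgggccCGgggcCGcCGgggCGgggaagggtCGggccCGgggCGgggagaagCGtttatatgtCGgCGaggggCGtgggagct
TMEM184B: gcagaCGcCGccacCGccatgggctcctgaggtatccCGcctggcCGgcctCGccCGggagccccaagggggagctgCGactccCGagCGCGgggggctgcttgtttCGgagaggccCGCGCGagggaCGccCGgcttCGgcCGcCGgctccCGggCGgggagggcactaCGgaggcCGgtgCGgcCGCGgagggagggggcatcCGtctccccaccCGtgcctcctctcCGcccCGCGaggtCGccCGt
DYNC1LI2: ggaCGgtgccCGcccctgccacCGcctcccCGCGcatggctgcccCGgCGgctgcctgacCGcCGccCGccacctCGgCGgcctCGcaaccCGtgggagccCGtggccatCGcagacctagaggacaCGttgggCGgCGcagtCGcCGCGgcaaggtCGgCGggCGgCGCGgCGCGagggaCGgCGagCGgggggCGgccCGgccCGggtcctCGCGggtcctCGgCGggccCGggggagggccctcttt
GLRX2: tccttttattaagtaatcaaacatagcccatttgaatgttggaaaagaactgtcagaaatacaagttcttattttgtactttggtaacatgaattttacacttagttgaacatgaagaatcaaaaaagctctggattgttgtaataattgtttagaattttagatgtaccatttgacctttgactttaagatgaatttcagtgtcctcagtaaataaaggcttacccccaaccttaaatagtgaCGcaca
GTF2A1L: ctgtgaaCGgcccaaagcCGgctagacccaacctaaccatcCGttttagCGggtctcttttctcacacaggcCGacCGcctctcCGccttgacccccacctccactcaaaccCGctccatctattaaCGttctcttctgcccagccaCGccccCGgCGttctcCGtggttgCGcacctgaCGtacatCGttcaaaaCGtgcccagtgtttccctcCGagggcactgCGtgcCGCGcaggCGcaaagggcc

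The promoter of ZSCAN12, a zinc finger gene, lies at chr6:28399748-28399997 on the minus strand and holds 21 CG dinucleotides. Its peak had a summit of 20 fragments with DMSO and 18 with OTS186935. Fold enrichment at this peak, the authors' value over local background, was 10.5 and 11.3 in that order, and the summits lay 9 bp apart. The promoter of COL6A6, a collagen VI chain gene (chr3:130516927-130517176, plus strand), holds 19 CG dinucleotides and had summits of 17 and 18 fragments that lay 186 bp apart. Both peaks were therefore of nearly equal height in the 2 libraries.

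The promoter of TMEM184B, which encodes a transmembrane protein, lies at chr22:38272665-38272914 on the minus strand, is 78.4% G and C and holds 34 CG dinucleotides. Its DMSO peak, from 38272275 to 38272837, had a summit of 15 fragments and a fold of 8.3, and none was listed there with OTS186935, doxorubicin or the combination. That of DYNC1LI2, a dynein light intermediate chain gene (chr16:66751610-66751859, minus strand), is 81.2% G and C with 40 CG dinucleotides, and its DMSO peak of 9 fragments reached 10 bases into the printed stretch from the gene side. The promoter of GLRX2, a mitochondrial glutaredoxin gene (chr1:193106115-193106364, minus strand), holds 1 CG dinucleotide and is 31.2% G and C. Its DMSO peak, from 193106323 to 193106781, had a summit of 19 fragments and lay mostly upstream of the printed stretch. A strong peak found only with DMSO thus also met a promoter poor in CG, though most of that peak lay outside the bases counted. The promoter of GTF2A1L, a germ cell relative of a general transcription factor (chr2:48617606-48617855, plus strand), holds 22 CG dinucleotides and had a peak of 13 fragments with OTS186935 and none with DMSO.

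Over 22012 promoter windows of 300 bases, which reach from 250 before to 50 after a start, 3181 (14.5%) were overlapped by a DMSO peak and 2197 (9.98%) by an OTS186935 peak. Both lists overlapped 1495 windows, or 47% of those with a DMSO peak. These windows come from 22 chromosomes, with chromosome 8 not analysed here, and they matched 15812 of 19974 protein-coding symbols. The windows were divided into 10 groups of equal size by G and C content, group 1 being the poorest. The share of DMSO windows also called with OTS186935 was 55.3% (49.7 to 60.9) in group 4, 50.2% (45.6 to 54.9) in group 7, 42.5% (37.7 to 47.3) in group 9 and 32.2% (27.2 to 37.6) in group 10. Groups 1 to 3 held few windows with peaks, and their shares ran from 33.3% to 44%. The number of windows called with OTS186935 was 0.833 times that with DMSO in group 4 and 0.54 times in group 10. Compared with groups 4 to 7, the share was lower in group 10 among weak and strong DMSO peaks alike. Below the median −log10 q of 3.7, the share was 32.1% (28.8 to 35.5) in groups 4 to 7 and 18.8% (13.8 to 24.8) in group 10, and at or above it 70.2% (67.1 to 73.1) and 55.5% (46.1 to 64.6). The poorest windows, groups 1 to 3, had shares as low, at 20.9% (13.9 to 29.4) and 52.3% (44.6 to 59.9), so the share was lower at both ends of the range.

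**Figure D1:**
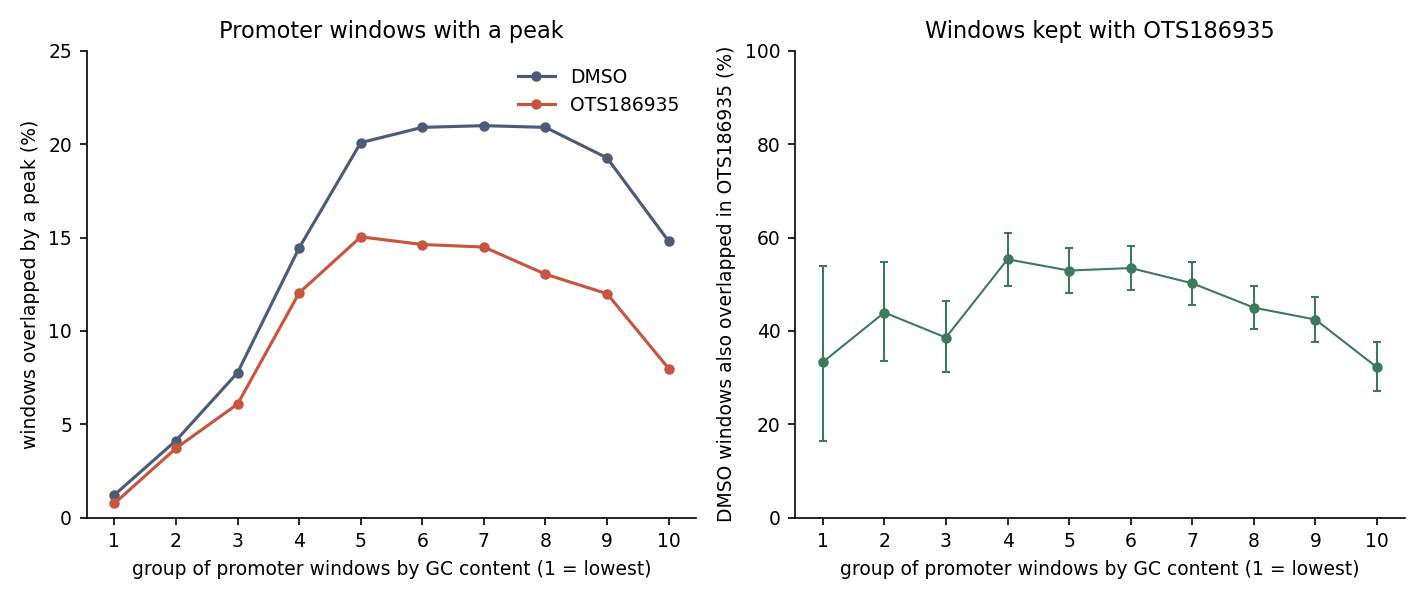
Left, percent of promoter windows of 300 bases overlapped by a peak in each of 10 groups of windows by G and C content, 1 library per line. Right, percent of the windows with a DMSO peak that also had an OTS186935 peak, with exact 95% intervals: the share is 55.3% in group 4 and 32.2% in group 10.

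Doxorubicin and the combination gave low shares in the richest windows too. Of the DMSO windows in group 10, 22.4% (18 to 27.3) were overlapped by a doxorubicin peak and 16.6% (12.7 to 21.1) by a combination peak, against 41.3% (36.8 to 46) and 28.6% (24.5 to 32.9) in group 7. All these shares rest on the same DMSO library. The lower share in the richest windows was therefore not particular to OTS186935, and whether the DMSO library or the treated libraries account for it was not tested.

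By sequence content, windows called only with DMSO had a median of 66.7% G and C and 26 CG dinucleotides, those called in both 65% and 22, those only with OTS186935 64% and 20, and those in neither 61.3% and 20. The letters GGGCGG, a core of GC boxes, were searched on both strands and stood in 68.5% (66.2 to 70.7) of windows called only with DMSO, 62.9% (60.4 to 65.3) of those called in both and 62.8% (59.1 to 66.4) of those only with OTS186935, against 56.3% of all windows. CCAAT stood in 28.9%, 29.4% and 33.6% in the same order and in 34.7% of all windows, on either strand. These are matches of letters and not binding sites. TMEM184B, DYNC1LI2 and COL6A6 hold GGGCGG in their windows.

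Of the 72858 DMSO peaks, 32383 (44.4%) overlapped an OTS186935 peak by at least 1 bp, and 32428 of 59710 OTS186935 peaks (54.3%) overlapped a DMSO peak. The term kept is used below for a DMSO peak that is overlapped in this way. The remaining 40475 DMSO peaks and 27282 OTS186935 peaks are called one-sided. One-sided peaks were mostly not near misses: only 2.95% of those in DMSO and 4.07% of those with OTS186935 lay within 500 bp of a peak of the other list. Their median distance to it was 10034 bp and 8146 bp.

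Shared peaks were wider and taller than one-sided ones in both lists. Median width in DMSO was 548 bp (545 to 552, an interval from order statistics) for shared and 424 bp (423 to 426) for one-sided peaks, and with OTS186935 it was 512 and 403 bp. Median summit height in fragments was 10 against 7 in DMSO and 8 against 6 with OTS186935. A second summit or more stood in 9.14% of shared and 1.35% of one-sided DMSO peaks. The share of DMSO peaks kept was 24.3% at a width of up to 350 bp and 88.9% over 1200 bp. By number of summits it was 42.4% with 1, 83.2% with 2 and 94.9% with 3. A wide peak meets another more easily, so overlap by itself favours wide peaks. When a DMSO peak counted as kept only if a summit of the other list lay within 200 bp of one of its own, 35.4% were kept.

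**Figure D2:**
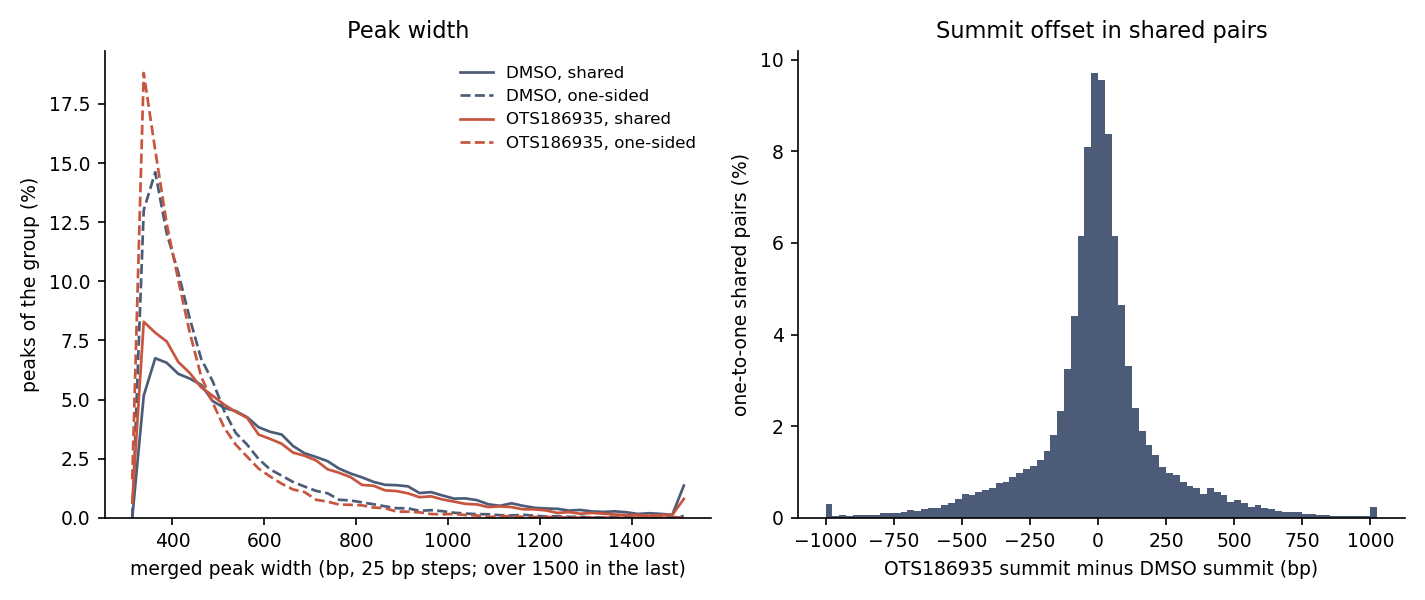
Left, width of merged peaks in steps of 25 bp, as a percent of each group, for shared and one-sided peaks of both libraries; medians are 548 and 424 bp in DMSO and 512 and 403 bp with OTS186935. Right, distance from the DMSO summit to the OTS186935 summit in one-to-one shared pairs, centred near 0, with values past 1000 bp gathered in the end bars.

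In the 31886 pairs that matched 1 peak to 1 peak, the strongest summits lay a median of 80 bp apart, and 57.3% (56.7 to 57.8) lay within 100 bp. The signed median was -1 bp, so neither library was displaced to 1 side. Summits lay closest in the outer 0.5 Mb of chromosomes, at a median of 50 bp with 67.4% within 100 bp. At gene ends, defined as within 1 kb of either end of a protein-coding gene, the median was 117 bp and 45.8% lay within 100 bp. Summits of a pair thus lay further apart at gene ends than elsewhere.

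The summits of the same pairs were lower with OTS186935 in 57.6% and higher in 30.3%. The median summit was 10 fragments with DMSO and 8 with OTS186935, and the median of the pair ratios was 0.875. The lowest background solved among the rows of a list was 0.454 fragments per position with DMSO and 0.397 with OTS186935, a ratio of 0.874. The background ratio, the measure of depth used here, was close to the pair ratio. A background of this kind also depends on fragment length. With the shortest peaks, of 331 and 323 bp, taken as fragment lengths, the estimated ratio of fragment numbers was 0.895. The pairs cover only peaks called in both lists, and whether depth accounts for their lower summits was not tested. By place, the median pair ratio lay between 0.833 at 500 to 1000 bp from a start and 0.9 in the outer 0.5 Mb of chromosomes. OTS186935 peaks were narrower in 57.7% of pairs, with a median width ratio of 0.951. The ratio of peak numbers, 0.82 for all peaks, differed with peak strength. For −log10 q of 5 or more it was 0.568 (18655 peaks with DMSO and 10592 with OTS186935). By summit height it was 0.977 at up to 5 fragments, 0.437 at 16 to 20 and 0.532 over 20. By width it was 1.21 at up to 350 bp and 0.592 over 1200 bp. How much of the difference of 18% in the number of peaks comes from depth was not tested.

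The OTS186935 list was shorter by more near the starts of genes than elsewhere. Distances to starts were measured from the promoter windows, so peaks of chromosome 8 (3035 and 2502) are left out of them. The windows matched 15812 of 19974 coding symbols, so a peak classed as far from a start may lie near one without a window. The same holds for peaks classed at a 3′ end alone. With DMSO 1884 summits and with OTS186935 1348 lay within 250 bp of a start, a ratio of 0.715. The ratio was 0.661 at 250 to 500 bp, 0.71 at 500 to 1000 bp, 0.827 at 1 to 2 kb and 0.837 over 100 kb from a start, against 0.82 for all peaks, chromosome 8 included. With the same chromosome left out, for summits within 1 kb of a start the ratio was 0.698 (4865 and 3395 peaks), and where a peak lay at a 3′ end alone it was 0.81 (1314 and 1064). On all chromosomes, inside genes away from their ends it was 0.819 and in regions over 500 kb from a coding gene 0.817.

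The peaks that OTS186935 had at starts mostly overlapped DMSO peaks: 74% (71.5 to 76.3) of those within 250 bp did, against 52.5% (51.7 to 53.3) of those over 100 kb from a start. When summits had to lie within 200 bp, the shares were 53.6% (50.9 to 56.3) and 42.7% (41.9 to 43.4), a smaller difference. Of DMSO peaks at gene ends 51.1% (50 to 52.2) were kept, against 42.4% (41.9 to 42.9) inside genes. Among peaks over 100 kb from a coding gene it was 43.9% (42.9 to 44.9). The excess at gene ends was nearly as large at like −log10 q, 50.6% when standardised to the strength of the whole list. When summits had to lie within 200 bp, 36.9% (35.8 to 37.9) were kept at gene ends, 34% (33.5 to 34.5) inside genes and 36.3% over 100 kb from a coding gene, so that the excess was smaller against gene interiors and nearly gone against far regions. With peaks of −log10 q of 5 or more, 29.9% at gene ends and 29.97% far from genes were kept. Peaks at gene ends were also wider, with a median of 546 bp against 457 bp inside genes.

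DMSO peaks in the outer parts of chromosomes were kept more often than those further in. The share of DMSO peaks kept was 69.7% (67.5 to 71.8) in the outer 0.5 Mb, 54.8% (52.3 to 57.2) at 0.5 to 1 Mb, 48.7% (46.8 to 50.6) at 1 to 2 Mb and 42.8% (42.4 to 43.3) beyond 20 Mb. The number of peaks there was 1787 with DMSO and 1651 with OTS186935, a ratio of 0.924, the highest of the distance classes. DMSO summits in the outer 0.5 Mb had a median of 22 fragments, against 7 beyond 20 Mb. Fold over local background was lower in the outer 0.5 Mb, however, at a median of 3.91 against 4.44. At like −log10 q the outer share was 59.1%, and with summits within 200 bp it was 62.2% (59.9 to 64.4), against 34.3% (33.9 to 34.8) beyond 20 Mb. The difference between chromosome ends and interiors was thus present by both measures, unlike that of gene ends and far regions.

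**Figure D3:**
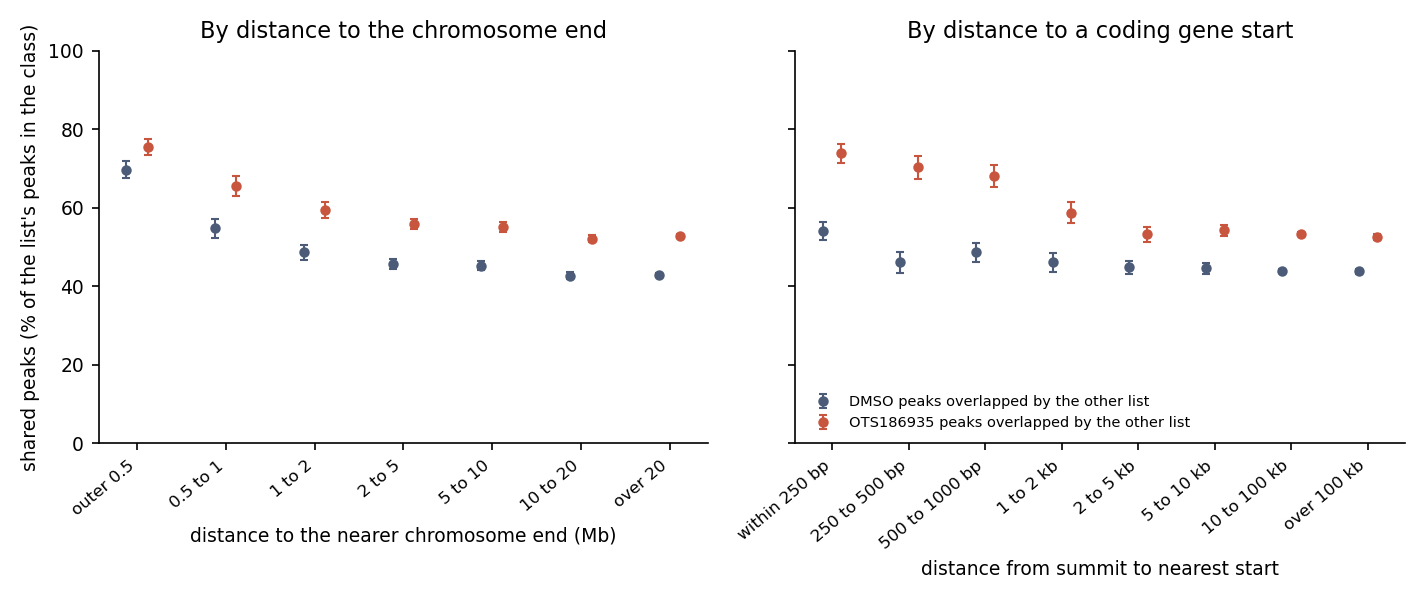
Percent of peaks of each list overlapped by the other list, with exact 95% intervals. Left, by distance to the nearer chromosome end in Mb. Right, by distance of the summit to the nearest coding gene start that has a promoter window, without chromosome 8. The DMSO share is 69.7% in the outer 0.5 Mb and 42.8% beyond 20 Mb, and the OTS186935 share is 74% within 250 bp of a start.

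Named bins of 1 Mb showed the same at single chromosome ends. The last full bin of the long arm of chromosome 11, with B3GAT1 and JAM3 (chr11:134000001-135000000), held 133 DMSO and 124 OTS186935 peaks, the most of any bin in both, and 78.9% of the DMSO peaks were kept. The first bin of chromosome 5, with SDHA and AHRR, held 131 and 118, and 73.3% were kept. In the bin in which chromosome 7 ends (chr7:159000001-160000000), which holds VIPR2, a receptor gene for the peptide VIP, 43 of 49 DMSO peaks were kept. These bins were chosen after their values were seen.

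Across chromosomes the OTS186935 list was shorter by a similar part. The ratio of peaks ran from 0.779 on chromosome 13 (847 and 660 peaks) to 0.869 on chromosome X (2540 and 2207), and 21 of 23 chromosomes lay between 0.75 and 0.85. The share of DMSO peaks kept ran from 34.5% (31.3 to 37.8) on chromosome 13 to 48.7% (47 to 50.4) on the gene-dense chromosome 19, a range of 14.2 percentage points. Chromosome 13 sets that range, which was 6.99 without it. It had 7.41 DMSO peaks per Mb, fewer than any other chromosome, and at like −log10 q its share was 43.4%, close to the others.

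**Figure D4:**
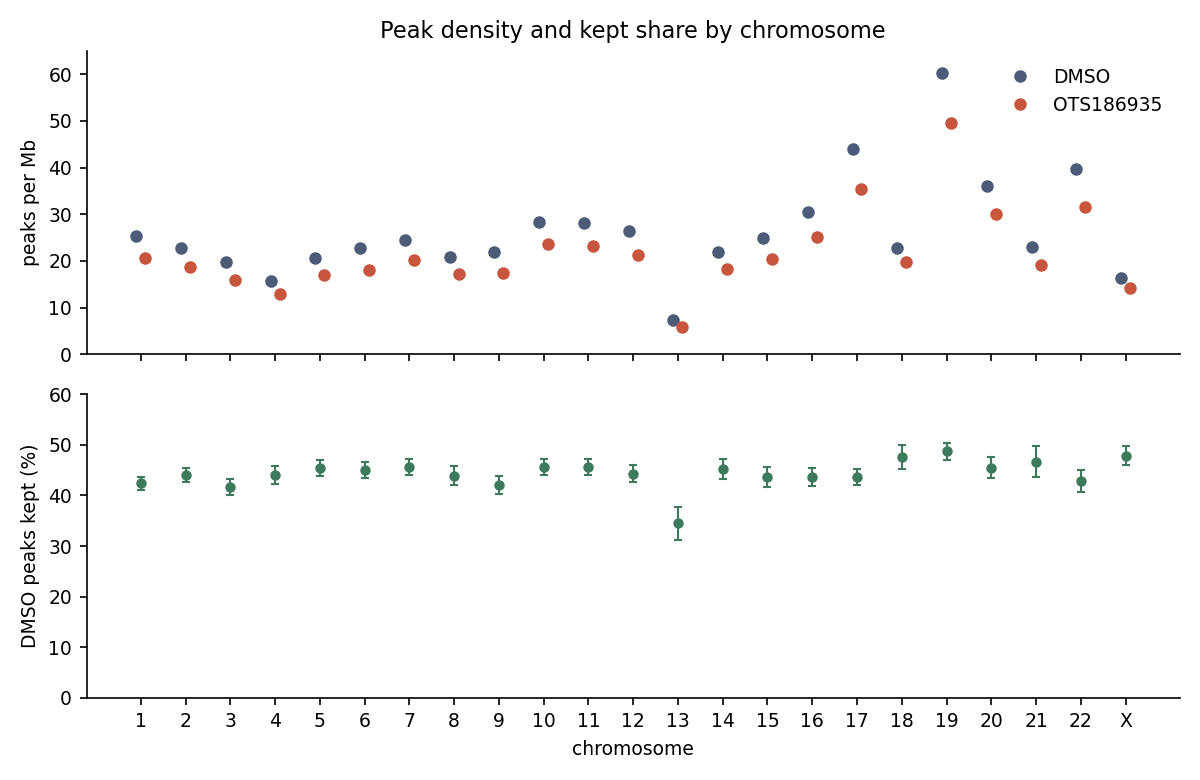
Top, merged peaks per Mb on each chromosome in the 2 libraries. Bottom, percent of DMSO peaks overlapped by an OTS186935 peak with exact 95% intervals: chromosome 13 is lowest at 34.5% and chromosome 19 highest at 48.7%.

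In bins of 1 Mb the 2 lists followed the same landscape. Of 3043 bins, 2851 held peaks of both lists, 14 held only DMSO peaks, 3 only OTS186935 peaks and 175 none. Over 1970 bins with at least 20 peaks of both lists together, Pearson's r between the numbers of peaks was 0.973 and Spearman's rho 0.954, given as a description, since neighbouring bins and the libraries' shared cell line make the points dependent. DMSO had more peaks in 1586 of these bins, OTS186935 in 262, and 122 were equal. Relative to the genome-wide ratio, 90 bins (4.57%) lay past 1.5-fold below and 85 (4.31%) past 1.5-fold above. None of the 360 bins with at least 100 peaks did, where the relative ratio ran from 0.695 to 1.44. The residuals of the bins from the genome-wide ratio, each divided by the binomial SD of its counts, had an SD of 0.721. The single bins past 1.5-fold below are descriptions of these libraries, and no local change is read from them.

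**Figure D5:**
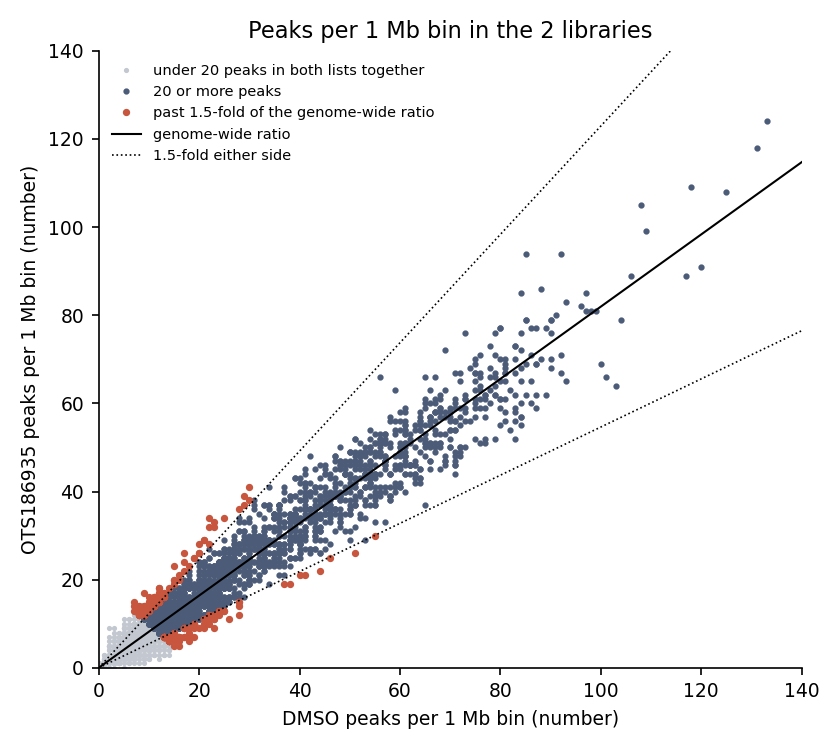
Number of OTS186935 peaks against DMSO peaks in each bin of 1 Mb, 1 point per bin. The solid line is the genome-wide ratio of 0.82 and the dotted lines are 1.5-fold either side. The 175 red points past the dotted lines all lie among bins with fewer than 100 peaks.

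The bin furthest below by residual, chr4:185000001-186000000, held 51 DMSO and 26 OTS186935 peaks, and its 11 coding genes include the muscle genes PDLIM3 and SORBS2 and SLC25A4, a mitochondrial ADP/ATP carrier gene. A bin of chromosome 20 (54000001 to 55000000) with the vitamin D hydroxylase gene CYP24A1 and BCAS1 held 18 and 6. A bin of chromosome 9 (107000001 to 108000000) with only RAD23B, a nucleotide excision repair gene, and KLF4, a transcription factor gene, held 23 and 9. That of chromosome 7 (150000001 to 151000000), with the GIMAP family of immune GTPases and the potassium channel gene KCNH2, held 44 and 22, and a bin of chromosome 6 (9000001 to 10000000) without a coding gene 16 and 5. All had peaks in both lists.

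The bin furthest above, chr11:131000001-132000000, holds NTM alone, a cell adhesion gene of neurons, with 22 DMSO and 34 OTS186935 peaks, and 16 of the 22 were kept. A bin of chromosome 9 (79000001 to 80000000) with TLE4, a corepressor gene, held 7 and 15. On chromosome 14, the bin with RGS6, DPF3 and DCAF4 (72000001 to 73000000) held 22 and 32, and that with UNC79 and ITPK1 (93000001 to 94000000) 30 and 41. A bin of chromosome 19 without a coding gene (28000001 to 29000000) held 23 and 33. Of the DMSO peaks, 15 of 22 were kept in the bin with DPF3, 15 of 23 in that without a gene, 14 of 30 in that with UNC79 and 3 of 7 in that with TLE4.

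Bins with more coding genes held more peaks, while the ratio of the lists differed little between them. Bins without a coding gene held a mean of 5.86 DMSO peaks and those with 20 or more genes 58.3, while the ratio was 0.835 and 0.81 in that order. The share of DMSO peaks kept was 42.9% (41 to 44.7) without a gene and 46.5% (45.6 to 47.3) with 20 or more. It followed the density of peaks more widely, from 32.5% (29.2 to 36) in bins with 1 to 9 peaks of both lists to 47.3% (46.7 to 47.8) in those with 80 or more.

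The genes with many shared peaks were long, and several lie near chromosome ends. PTPRN2, a receptor-type phosphatase gene of secretory vesicles (chr7:157539056-158587823), held 128 DMSO and 107 OTS186935 peaks, 77 of the DMSO peaks being kept. CACNA1C, the gene of an L-type calcium channel subunit, held 60 and 50 with 34 kept. DIP2C held 54 and 46 with 34 kept, ADARB2, a relative of RNA editing enzymes, 59 and 52 with 33 kept, and CDH4, the R-cadherin gene, 67 and 58 with 33 kept. In each of these the OTS186935 number was lower.

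Of 2485 genes with at least 5 DMSO peaks in their extent, 1849 had fewer with OTS186935, 286 had as many and 350 had more. Since the genes were taken by their DMSO number, this count is tilted towards fewer with OTS186935. RBFOX3, the gene of the neuronal splicing factor NeuN (chr17:79089345-79665571), held 46 DMSO and 23 OTS186935 peaks, and 15 of the 46 were kept. GSE1 held 45 and 28, SDK1, an adhesion gene of neurons, 42 and 26, and AGAP1, a regulator of Arf GTPases, 57 and 43. ERC1, a scaffold gene of vesicle release sites (chr12:989959-1495933), held 24 and 9, with 5 kept. ERC1 had the lowest ratio of these genes.

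The genes with the largest excess with OTS186935 had fewer peaks. CALN1, a neuronal calcium-binding protein gene (chr7:71779491-72504279), held 8 DMSO and 17 OTS186935 peaks, of which 3 were shared. NTM held 21 and 29, OSBPL10, a lipid-binding protein gene, 6 and 14, and PLXNA4, a semaphorin receptor gene, 16 and 23. DPF3, a subunit gene of BAF chromatin remodelling complexes (chr14:72609034-72894101), held 9 and 16, and 8 of the 9 were kept. SNTG2, a syntrophin gene, held 23 and 30 with 15 kept. With peaks of −log10 q of 5 or more alone, CALN1, NTM and PLXNA4 had fewer peaks with OTS186935, by 1, 3 and 1. At that cutoff the ratio of the whole lists was 0.568, so fewer peaks were not particular to these genes.

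Among gene ends, the shared pairs whose lower fold was highest are strong in both libraries by the way they were chosen. ADNP2, a homeobox and zinc finger gene, had a summit of 38 fragments with DMSO and 30 with OTS186935, 2 bp apart, at chr18:80107948-80108536 in DMSO. OR2T10, an olfactory receptor gene of chromosome 1, had 13 and 14 fragments, and SCAND3, next to ZSCAN12 in a cluster of zinc finger genes on chromosome 6, 16 and 20. SPRY3, a Sprouty gene of the pseudoautosomal region of chromosome X, had 23 and 20. Fold enrichment at these peaks lay between 9.28 and 10.8.

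The strongest one-sided peaks with no peak of the other list within 10 kb had summits of 17 to 20 fragments with DMSO, where 20282 peaks stood alone in this way. That of highest −log10 q (16.7) lay at chr1:16685886-16686381, 12.4 kb from the nearest coding gene, a predicted one, with 18 fragments and 11.9-fold enrichment, and a doxorubicin and a combination peak overlapped it. The next lay inside CACNA1B, a neuronal calcium channel gene (chr9:137935732-137936221), with 20 fragments. A peak over PF4, the platelet chemokine gene (chr4:73981715-73982162), had 17. That at PIEZO2 lay 229 kb outside the gene and had 19. These 8 peaks were listed with doxorubicin in 5 cases, so a peak absent from the OTS186935 list was not always absent with another treatment.

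With OTS186935, 11791 peaks stood alone, of which 982 had a −log10 q of 5 or more, against 2994 with DMSO. The strongest lay inside DCAF4, a ubiquitin ligase substrate receptor gene (chr14:72958581-72958921), with 17 fragments, 10.1-fold enrichment and a −log10 q of 13.3. One inside FHIT, a gene of a common fragile site (chr3:61202024-61202572), had 14 fragments. Those at DCAF4 and FHIT were listed in neither doxorubicin nor the combination.

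The other libraries carried few of the one-sided peaks. Their lists were shorter, with 47495 merged peaks for doxorubicin and 29213 for the combination. The shares below are not adjusted for list length. Doxorubicin peaks overlapped 20.4% (20 to 20.8) of DMSO-only and 18.4% (17.9 to 18.8) of OTS186935-only peaks, and combination peaks overlapped 11.8% (11.5 to 12.1) and 10.8% (10.5 to 11.2). Of peaks shared by DMSO and OTS186935, doxorubicin peaks overlapped 53.4% (52.9 to 54) and combination peaks 38.4% (37.9 to 38.9). Standardised to like −log10 q, doxorubicin overlapped 48.6% of shared and 22.4% of DMSO-only peaks. The combination, which also contains OTS186935, thus overlapped OTS186935-only peaks no more often than DMSO-only peaks. These sets differ in strength, however. OTS186935-only peaks had a median of 403 bp and 6 fragments, against 424 bp and 7 fragments for DMSO-only peaks. A −log10 q of 5 or more was reached by 9.19% and 16.2% in that order. Whether the combination overlapped OTS186935-only peaks more often than DMSO-only peaks of like strength was not tested.

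Gene groups were described by genes with a peak within 1 kb of either end and by peaks inside their extents. Of 19974 coding genes, 7738 (38.7%) had a DMSO peak at an end and 5739 (28.7%) an OTS186935 peak, and 4369 of the 7738 (56.5%) had one in both, not always at the same place. Of all coding genes, 3369 (16.9%) had one with DMSO alone and 1370 (6.86%) with OTS186935 alone, and 4369 are 21.9%. No list was tested.

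Immediate early genes, which cells transcribe within minutes of a stimulus, numbered 27, of which 17 had a gene-end peak in DMSO, 7 in OTS186935 and 6 in both. Their share of 35.3% (14.2 to 61.7) has an interval that includes the 56.5% of all genes. FOS, an AP-1 subunit gene, had a DMSO peak of 21 fragments and 5.46-fold enrichment (chr14:75278959-75279418) and none with OTS186935, and CCN1, a matrix protein gene, had 10 fragments and none. CCN2, a relative of CCN1, had 7 and 9 fragments, and IER5 had 8 and 6, in overlapping peaks. At JUN the strongest gene-end peaks, of 13 and 5 fragments, did not overlap each other, and the OTS186935 peak overlapped another DMSO peak. Inside the extents the list held 39 DMSO and 19 OTS186935 peaks, a ratio of 0.487 against 0.804 for all coding genes. These genes are short, 0.267 Mb in all, and the ratio for all peaks at gene ends was 0.733. The ratio of the list rests on few peaks and has no interval. Of its DMSO peaks, 38.5% (23.4 to 55.4) were kept, against 43.9% in all coding genes.

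Of 26 genes that act in heterochromatin and H3K9 methylation, 9 had a gene-end peak in DMSO, 3 in OTS186935 and 2 in both. The share with both, over members with a DMSO peak, was 22.2% (2.81 to 60). Its interval includes the 56.5% of all genes. MORC2, which works with the HUSH silencing complex, had a DMSO summit of 8 fragments, CBX3, an HP1 gene, 7, HDAC2, a deacetylase gene, 7 and KDM4C, an H3K9 demethylase gene, 6, and none of these overlapped an OTS186935 peak. The median of all DMSO peaks was 8. A taller gene-end peak of 23 fragments, at EHMT1, did not overlap an OTS186935 peak either. Inside extents the list held 104 and 75 peaks, a ratio of 0.721, and 36.5% (27.3 to 46.6) were kept. In all coding genes the ratio was 0.804 and 43.9% were kept, which that interval includes. The gene of the inhibitor's target, SUV39H2, held 1 peak in each library, which overlapped, and none at its ends. EHMT1, a methyltransferase gene near the end of chromosome 9, held 23 and 14 peaks in its extent.

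Of 24 damage signalling genes, 6 had a gene-end peak in DMSO and 3 in OTS186935, these 3 being among the 6. This share of 50% (11.8 to 88.2) has an interval that includes the 56.5% of all genes. H2AX itself had overlapping peaks of 9 and 10 fragments, and RPA1, a subunit gene of the single-strand binding protein RPA, had 9 and 11. RAD54L, a recombination gene, had 9 and 7 at sites that did not overlap. Inside extents 53 and 44 peaks were found, a ratio of 0.83 against 0.804 in all coding genes.

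Smooth muscle genes, which mark the lineage of leiomyosarcoma, numbered 20, of which 12 had a gene-end peak in DMSO, 9 in OTS186935 and 7 in both. DES, the desmin gene, had summits of 27 and 17 fragments, ACTA2, the smooth muscle actin gene, 11 and 5, and SMTN, the smoothelin gene, 19 and 12, all in overlapping peaks that were lower with OTS186935. Others went the opposite way: overlapping peaks had 4 and 8 fragments at CALD1, the caldesmon gene, and 5 and 10 at LMOD1, a leiomodin gene, while the smooth muscle actin gene ACTG2 and the tropomyosin gene TPM2 had gene-end peaks of 9 and 8 fragments with OTS186935 alone. These 4 were chosen after their values were seen. CNN1, the calponin gene, had 16 with DMSO and none with OTS186935. Neuronal genes, a comparison list, had 7 and 6 of 12, all 6 in both, among them SYT1 with 14 and 8 fragments and ELAVL4 with 9 and 9. Epithelial genes had 4 and 4 of 6, 3 in both. Over members with a DMSO peak, the share with both was 58.3% (27.7 to 84.8) for smooth muscle genes. It was 85.7% (42.1 to 99.6) for neuronal and 75% (19.4 to 99.4) for epithelial genes. Each interval includes the 56.5% of all genes.

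In each of the following families, the share with peaks in both, taken over members that had one in DMSO, has an interval that includes the 56.5% of all genes. Clustered zinc finger genes of chromosome 19 had gene-end peaks at 85 and 62 of 250, 51 in both (60%, 48.8 to 70.5), and olfactory receptor genes at 28 and 24 of 392, 19 in both (67.9%, 47.6 to 84.1). HOX genes had 20 and 15 of 39, 12 in both (60%, 36.1 to 80.9). HOXB1 had overlapping peaks of 24 and 12 fragments, while HOXD1 had 11 with DMSO alone. Clustered protocadherins had 13 and 12 of 53, 7 in both (53.8%, 25.1 to 80.8). Replication-dependent histone genes had 33 and 17 of 69 with 13 in both (39.4%, 22.9 to 57.9). Members of these families resemble each other, so the placing of reads among them is uncertain. Neighbours also share peaks, as the histone genes H2BC12 and H4C9 do. The intervals treat genes as independent, so they are too narrow where a peak counts for several genes.

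Genes of common fragile sites, which break under replication stress and are very long, held 333 DMSO and 263 OTS186935 peaks over 30.8 Mb, a ratio of 0.79, and 33.9% (28.9 to 39.3) were kept against 43.9% in all coding genes. DMD, the dystrophin gene, held 22 and 13, RBFOX1 29 and 18 and NAALADL2 20 and 10. AUTS2 held 27 and 30, WWOX 18 and 20 and FHIT 5 and 8. The members thus differed in direction, and the list is sparse in peaks, with 10.8 DMSO peaks per Mb against 33.1 in all coding genes. The members named without a gene-end peak were chosen after their values were seen. Genes altered in leiomyosarcoma had gene-end peaks at 6 and 5 of 16, 4 in both. Among them was HMGA2, a chromatin architectural protein gene, with summits of 9 and 8 fragments. Over members with a DMSO peak, the share with both was 66.7% (22.3 to 95.7). Its interval includes the 56.5% of all genes.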

How the data were processed

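Peak lists of γH2AX ChIP-seq from SK-UT-1 cells were used, 1 library each for DMSO and OTS186935, with doxorubicin and the combination for overlaps alone. Per the labels' protocols, cells were cross-linked with formaldehyde, sonicated chromatin was immunoprecipitated for H2A.X phosphorylated on serine, and a ThruPLEX kit was used for the libraries. MACS2 2.2.7.1, Bowtie2 2.4.2, bedtools 2.30.0, Picard 2.25.3 and hg38 are listed, per the submitters' processing notes, without roles. Options of the peak caller, filters, any input library and the depth were not given in the sources used here. The deposited lists hold 1 row per summit, with a fold ratio over local background, −log10 p, −log10 q and a score, all the authors' deposited values. The lists had 76870 and 62008 rows, and the lowest −log10 q was 1.0 in each.

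Rows that overlapped or touched were merged, with the highest value kept, on chromosomes 1 to 22 and X. Rows on other contigs numbered 90 and 80. Summit height in fragments and local background were solved from fold and −log10 p (fold as height + 1 over background + 1, p from a Poisson tail), which matched the −log10 p within 0.0005 for 100% of rows. A second height matched in 119 and 1646 rows. The lowest background solved in each list served as a measure of depth. Gene extents and promoter sequences came from RefSeq tables of GRCh38.p14. Standardised shares are weighted to 10 groups of equal size by −log10 q over the whole list. The members, lists and comparisons were chosen with earlier results of these data known. The promoter sequence content was examined after the files had been seen.

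Genes and bins were named by rule: 6 bins per direction by Pearson residual, 8 shared pairs by the lower fold, 8 one-sided peaks per direction by −log10 q, 6 genes by shared peaks or by difference, and up to 4 list members by DMSO fold. Some items the rule took are not reported here, and others are said to have been chosen after their values were seen, as were the list members that are named only by the peaks in their extents. Alternatives were a −log10 q of 5, reciprocal overlap of 50%, joining within 1 kb, equal list length by −log10 p, all contigs, shifted bins, 2.5 kb windows, all annotated genes, standardising and the closest summits. Overlap, distance, height and standardising steps were tested on simulated data. Python 3.11.15, numpy 2.4.6, pandas 2.3.3, scipy 1.17.1 and matplotlib 3.10.9 were used, with bedtools 2.31.1 for the checks.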

Additional observations from a re-analysis of the deposited data

How the results depend on the processing

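The values below are for chromosomes 1 to 22 and X unless all contigs are named. No paired analysis was possible because each condition had 1 library. Depth limits every value: median summits were 8 and 7 fragments, so a peak missing from a list was not shown to be absent from the cells.

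With peaks of −log10 q of 5 or more, 26.5% of DMSO and 46.8% of OTS186935 peaks were shared, 50 bins lay past 1.5-fold above, 29.9% of DMSO peaks at gene ends and 29.97% over 100 kb from a coding gene were kept, so that the excess at gene ends over those far regions was gone (23.6% were kept inside genes). Median widths were then 608 bp for shared and 511 bp for DMSO-only peaks, 70.3% of pairs had summits within 100 bp, 4.22% of OTS186935-only peaks were in the combination and 8.69% of DMSO-only peaks in doxorubicin. With a reciprocal overlap of 50%, the same values were 37.6% and 45.9% shared, 40.3% and 39% kept, 539 and 433 bp, 61.3%, 9.84% and 17.4%. With lists of equal length they were 48.6% and 48.7% shared, 56.4% and 48.3% kept, 564 and 432 bp, 58.3%, 11.7% and 22.7%. Joining within 1 kb gave 45.2% and 54.8% shared. Summits within 200 bp, an alternative added after the data had been seen, gave 35.4% and 43.3% shared, and 36.9% at gene ends and 36.3% far from genes kept. Windows of 2.5 kb gave 49.8% kept at gene ends, all annotated genes 40.02% kept over 100 kb away, and the closest summits 61.2% within 100 bp. The range over autosomes was 6.5 points when standardised and 6.99 without chromosome 13, the latter added later. The other 14 of 53 alternatives, among them all contigs and shifted bins, left the values within their intervals, or counts within 1.5-fold.

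The share kept in the outer 0.5 Mb of chromosomes exceeded that beyond 20 Mb under each setting, at 64.4% and 24.5% with −log10 q of 5 or more and 61.1% and 36.9% with reciprocal overlap. For 14 genes named by difference, 37 of 42 added alternatives kept its direction. It turned for PTPRN2 with equal list length (2 more with OTS186935) and, with −log10 q of 5 or more, for CALN1 (-1), NTM (-3), PLXNA4 (-1) and UNC79 (-1). The cause was not tested.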

Other observations

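Some regions held similar numbers of peaks in both lists but few at the same sites. A bin of chromosome 13 with FARP1 and DOCK9 (chr13:98000001-99000000) held 20 and 16 peaks, of which 2 DMSO peaks were kept. FHIT held 5 DMSO and 8 OTS186935 peaks, and 0 of the 5 were kept. In contrast, 35 of 40 DMSO peaks were kept in the last full bin of chromosome X (chrX:155000001-156000000), with SPRY3 and VAMP7, where OTS186935 had 42. These bins were chosen after their values were seen.

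ARMC2 on chromosome 6 held 0 DMSO and 6 OTS186935 peaks, and the promoter of HAPSTR2, 78.8% G and C, had a peak of 15 fragments with DMSO and none with OTS186935. Both were also chosen after their values were seen.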
